A study of Mus musculus with 12 samples.

Results

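Imprinted genes were followed in conditionally immortalized mouse proximal tubule (PT) cells with and without TβRII, the TGF-β type II receptor encoded by Tgfbr2. The list held 41 imprinted genes from 18 chromosomal domains, of which 21 are listed as transcribed from the paternal allele and 20 from the maternal allele. These origins are labels of the list, and the allele in use in these cells was not measured. It was chosen by a readout: Peg12 had been seen to be lost in TβRII-/- PT cells, and the other members were added as known imprinted genes. The genotype values of Peg12 are therefore a description with no test, and Peg12 was left out of the counts of the genotype comparisons. A transcript was found for 36 members among 25514 genes. Of these, 25 passed the filter on low counts, among 12971 genes tested, and 11 did not. H19, Meg3, Rian, Airn and Zrsr1 were not analysed here.

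Genomic imprinting is the expression of a gene from the allele inherited from one parent, while the other allele is silent. The parental origin is marked by DNA methylation set in the germ line at imprinting control regions, and ZFP57, TRIM28 and DNMT1 keep that mark through cell division. Imprinted genes lie in clusters and many act on growth: CDKN1C stops the cell cycle, GRB10 dampens insulin receptor signalling, and PLAGL1 is a zinc finger transcription factor of a growth-related gene network.

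RNA was measured in 12 libraries, 3 for each of 4 groups. TβRIIflox/flox PT cells (genotype H2ts6;Tgfbr2fl/fl) and TβRII-/- PT cells (genotype H2ts6;Tgfbr2-/-) were kept in normal culture media, or were given H2O2 in serum free media for 24 h as oxidative stress. All 4 groups carried H2ts6 by their labels, derived from the Immorto-mouse with its thermolabile T antigen, came from male mice, were grown at 33 °C with interferon gamma and were moved to 37 °C 5 days before the experiment. The labels give a dose of 200 mM, while the methods of the study print it in μM. TβRII was deleted by adeno-Cre in culture in cells whose parental alleles were floxed. Nothing in the sources says that the libraries of a genotype came from separate lines, so genotype and cell line cannot be told apart, and p-values measure the spread between libraries, which may be technical. H2O2 and the removal of serum came together and also cannot be told apart.

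Counts per gene ranged from 15870155 to 20857618 per library. Tgfbr2 itself was counted at 7562 to 9248 normalized counts in the untreated TβRIIflox/flox libraries and at 6358 to 6782 in the untreated TβRII-/- libraries. With H2O2 it was counted at 13275 to 13918 in TβRIIflox/flox and at 7116 to 7311 in TβRII-/- libraries. Counts over a whole transcript do not isolate the deleted part, so these values check nothing on the deletion. The methods of the study say that the deletion was checked by immunoblotting and RNAseq. Of 16 proximal tubule markers, 8 were tested, and 6 of these were called between the untreated genotypes, beside 28.0% of all genes. In TβRII-/- PT cells 5 were lower (11.8% of all genes) and 1 was higher (16.3%). The median log2 fold change of the 8 was −0.67. Cubn went from a mean of 123 to 52.0 normalized counts, Ggt1 from 75.8 to 7.61 and Slc5a2 from 14.8 to 0, whereas Cdh16 went from 10310 to 21440. Ggt1 and Slc5a2, with means under 10 in both TβRII-/- groups, passed the filter through the TβRIIflox/flox libraries, so their falls are a description. Both are among the 6 called and the 5 lower, so these counts depend in part on the filter. The summed level of the list was 37290 to 45130 in untreated TβRIIflox/flox, 42370 to 46530 in untreated TβRII-/-, 49380 to 53690 in TβRIIflox/flox with H2O2 and 45450 to 46740 in TβRII-/- with H2O2. Lrp2, Cdh16, Aqp1 and Pax8 made up most of the untreated sums. Between the untreated genotypes the mean of Lrp2 went from 17280 to 11020 and that of Aqp1 from 7103 to 4421. Pax8 went from 5223 to 6262 and Cdh16 also rose, so the sum does not show the falls. Slc34a1, Hnf4a, Slc22a6, Slc22a8, Slc3a1 and Miox never exceeded 4 counts in a library. Among 10 fibroblast and mural cell markers, of which 5 were tested, the summed level moved with both genotype and H2O2, from 6836 to 8075 normalized counts in untreated TβRIIflox/flox, 3004 to 3450 in untreated TβRII-/-, 3221 to 3635 in TβRIIflox/flox with H2O2 and 833 to 996 in TβRII-/- with H2O2. Postn made up most of the untreated TβRIIflox/flox sum and went from a mean of 6101 to 197 between the untreated genotypes, whereas Acta2 went from 469 to 2495. Col1a2, Col3a1, Pdgfra, Lum and Rgs5 of that list never exceeded 4 counts. The endothelial list rested on Kdr alone (1 of 5 tested), with summed levels of 127 to 138, 465 to 586, 22.7 to 26.4 and 39.3 to 65.6 in the same order. Immune markers (2 of 6 tested) summed to 896 to 1169 over all libraries, and markers of other nephron segments (2 of 8 tested) to 178 to 269. The part of these markers in the results below was not tested.

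The genes nearest Peg12 belong to 1 paternally expressed cluster on chromosome 7, so their promoters are shown here side by side. Each window runs from 250 bases before to 50 bases after the transcription start in RefSeq on GRCm38.p6, 5′ to 3′ in the direction of the gene, with CG dinucleotides, the sites of methylation, in capitals. The windows are chr7:62464461-62464760 on the minus strand for Peg12, chr7:62348027-62348326 on the plus strand for Ndn, chr7:62420104-62420403 on the minus strand for Mkrn3, and chr7:60005150-60005449 on the minus strand for the start of the joint Snurf and Snrpn transcript, the lowest of 4 Snrpn starts by coordinate.
Peg12: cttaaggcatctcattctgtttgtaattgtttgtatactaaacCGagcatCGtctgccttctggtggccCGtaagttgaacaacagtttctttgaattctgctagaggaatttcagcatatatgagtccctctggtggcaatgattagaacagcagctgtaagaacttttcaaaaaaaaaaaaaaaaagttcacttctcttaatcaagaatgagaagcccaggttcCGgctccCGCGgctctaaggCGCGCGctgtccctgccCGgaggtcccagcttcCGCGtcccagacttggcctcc
Ndn: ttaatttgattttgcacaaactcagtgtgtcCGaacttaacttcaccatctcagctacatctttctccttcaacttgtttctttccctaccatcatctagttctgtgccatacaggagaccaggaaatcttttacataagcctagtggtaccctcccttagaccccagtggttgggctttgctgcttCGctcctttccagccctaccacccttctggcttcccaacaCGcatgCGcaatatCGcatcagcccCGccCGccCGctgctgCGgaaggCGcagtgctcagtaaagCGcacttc
Mkrn3: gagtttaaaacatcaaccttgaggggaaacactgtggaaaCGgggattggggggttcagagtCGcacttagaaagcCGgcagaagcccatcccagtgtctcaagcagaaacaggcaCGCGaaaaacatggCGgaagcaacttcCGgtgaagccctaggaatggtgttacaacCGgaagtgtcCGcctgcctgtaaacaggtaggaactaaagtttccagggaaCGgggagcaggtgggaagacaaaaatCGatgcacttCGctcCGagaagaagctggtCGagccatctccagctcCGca
Snrpn: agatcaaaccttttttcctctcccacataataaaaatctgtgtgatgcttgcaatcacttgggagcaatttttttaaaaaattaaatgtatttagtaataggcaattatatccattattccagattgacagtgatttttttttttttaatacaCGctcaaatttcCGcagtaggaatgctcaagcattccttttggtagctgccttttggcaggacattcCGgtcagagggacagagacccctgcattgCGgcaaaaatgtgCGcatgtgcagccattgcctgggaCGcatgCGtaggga
These windows held 12 CG for Peg12, 11 for Ndn, 15 for Mkrn3 and 7 for Snrpn, against a median of 7 over 32851 promoter windows. At least as many CG stood in 39.6% of all windows as for Peg12, in 41.4% as for Ndn, in 34.6% as for Mkrn3 and in 52.1% as for Snrpn. TGCCGC, the hexamer that ZFP57 reads, was searched on both strands. It stood once in the Snrpn window, on the reverse strand, and did not stand in the windows of Peg12, Ndn and Mkrn3. The other 3 Snrpn windows, not printed, held 2, 3 and 4 CG and no such hexamer. Of all windows, 11.6% held it. Such a match is a description of letters and not of binding.

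The Snrpn-Ube3a cluster, whose loss from the paternal chromosome underlies Prader-Willi syndrome in people, holds Peg12, which prompted the choice of members, and 4 tested genes. Of these 4, Ndn and Snrpn were called lower in untreated TβRII-/- PT cells, beside 11.8% of all genes, and Mkrn3 and the maternally expressed Ube3a were not called. Peg12 (chromosome 7, 62461871 to 62464510, an intronless Frat family gene whose relatives restrain GSK3) had 51.5, 31.2 and 29.0 normalized counts in the untreated TβRIIflox/flox libraries and 0 counts in all 3 untreated TβRII-/- libraries. Over the group this was 104 raw counts against 0, at least 37.8-fold lower against a floor of 3 counts over the group. With H2O2 the levels were 23.3, 28.9 and 22.9 in TβRIIflox/flox and 0.923, 0 and 0 in TβRII-/- PT cells, that is 71 raw counts against 1, a ratio of 84.4 with a 95% exact counting interval of 14.7 to 3380. These intervals cover counting error only. The groups did not overlap under either condition, and in bulk RNA fewer expressing cells and less RNA per cell cannot be told apart.

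Ndn and Snrpn, neighbours of Peg12 that the choice of members did not use, fell as well. Ndn encodes necdin, a MAGE family growth suppressor, and had 47.3, 40.1 and 32.3 normalized counts in untreated TβRIIflox/flox against 12.5, 11.6 and 14.4 in untreated TβRII-/- PT cells. It was 3.09-fold lower (log2 fold change −1.63 ± 0.28 SE, edgeR adjusted p = 7.69e-06). With H2O2 it had 38.6, 41.3 and 44.7 against 14.8, 14.2 and 17.9 normalized counts (log2 fold change −1.41 ± 0.26 SE, edgeR adjusted p = 2.13e-05). All TβRII-/- libraries were below all TβRIIflox/flox libraries.

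Snrpn, a component of the splicing machinery in brain, went from 121, 101 and 134 normalized counts in untreated TβRIIflox/flox to 16.7, 18.4 and 22.0 in untreated TβRII-/- PT cells. The fall was 6.19-fold (log2 fold change −2.63 ± 0.22 SE, edgeR adjusted p = 4.92e-12). With H2O2 it had 113, 113 and 125 against 40.6, 40.9 and 19.9 normalized counts, 3.38-fold lower (log2 fold change −1.76 ± 0.20 SE, edgeR adjusted p = 1.98e-09). Snurf, which shares its transcript with Snrpn (32.7% of the Snrpn exonic bases overlap genes on the same strand), had means of 22.9 and 3.26 normalized counts in the untreated genotypes and its counts are no separate evidence.

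The other members of the cluster showed no called difference between genotypes. Mkrn3, a makorin RING finger gene 0.044 Mb from Peg12, had 21.0, 28.9 and 19.4 normalized counts in untreated TβRIIflox/flox and 16.7, 8.71 and 18.2 in untreated TβRII-/- PT cells (log2 fold change −0.66 ± 0.34 SE, edgeR adjusted p = 0.0896). In the H2O2 groups it had 35.5, 19.6 and 33.2 against 22.2, 21.2 and 28.8 normalized counts, and the groups overlapped. Ube3a is a ubiquitin ligase imprinted in neurons and expressed from both alleles in most other cells. It had 2062, 2212 and 2353 against 2248, 2207 and 2360 normalized counts in the untreated genotypes (log2 fold change 0.04 ± 0.06 SE), and 2202, 2037 and 2149 against 2050, 2198 and 2010 with H2O2. Antisense RNAs overlap 32.4% of its exonic bases. Magel2 had 0 counts in every library. The 24 tested genes on either side of the cluster that are not on an imprinted list had a median log2 fold change of −0.26 without H2O2 and −0.27 with it, and 1 of them lay beyond Snrpn in each comparison.

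**Figure D1:**
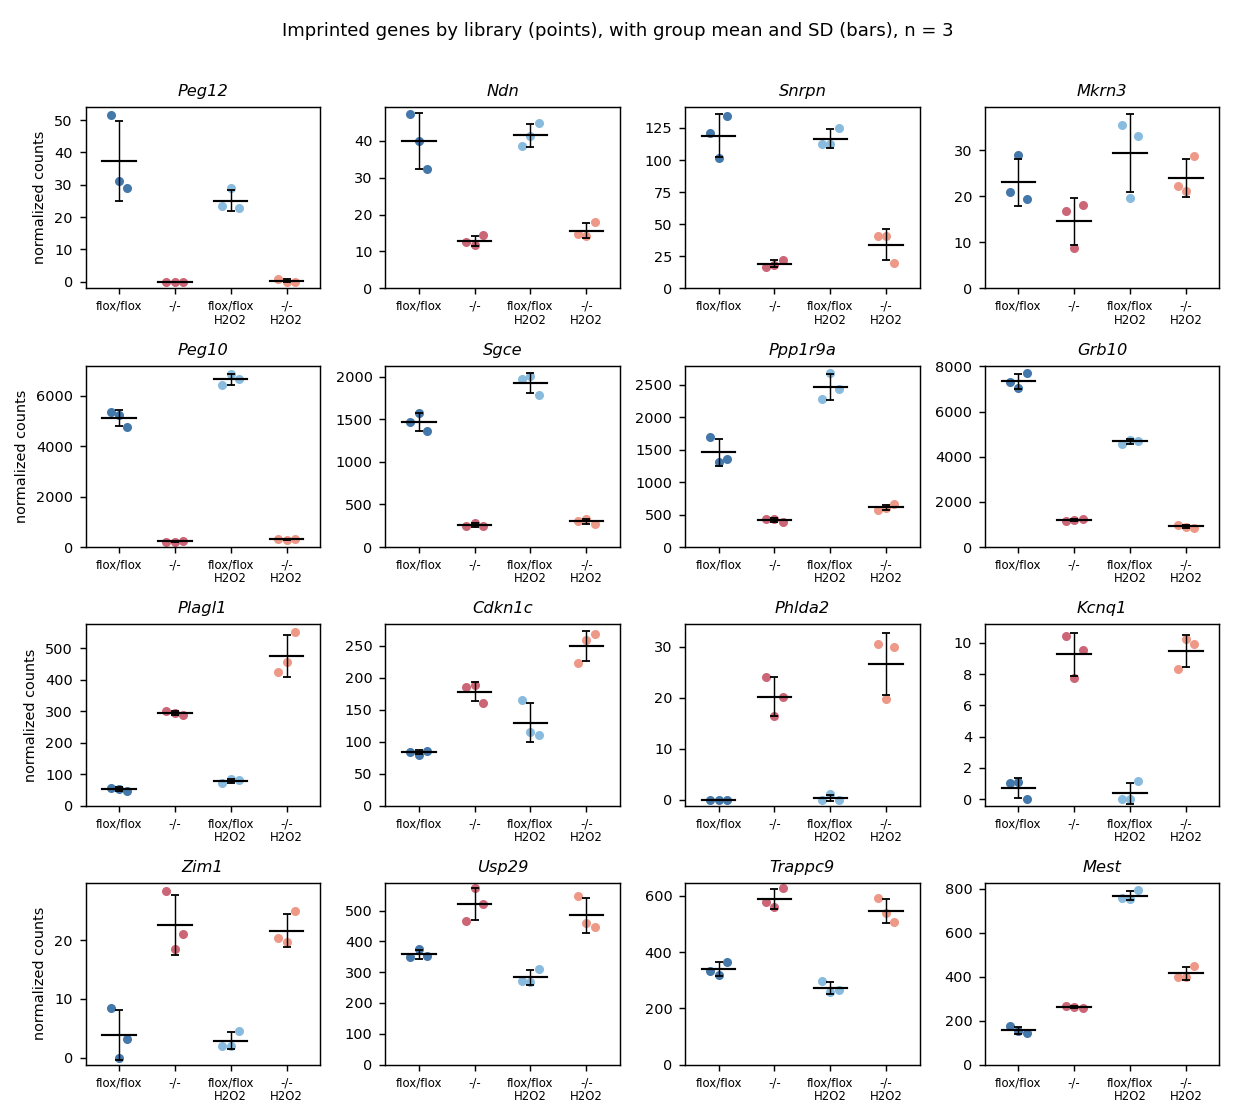
Normalized counts (y axis, linear) of 16 imprinted genes in the 4 groups (x axis), with a point for each library and bars for the mean and SD of 3 libraries. Peg12, Ndn, Snrpn, Peg10, Sgce, Ppp1r9a and Grb10 sit low in both TβRII-/- groups, Plagl1, Cdkn1c, Phlda2, Kcnq1, Zim1 and Trappc9 sit high there, and Mest changes order with H2O2.

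All 3 tested members of the Peg10-Sgce cluster on chromosome 6 were called lower in TβRII-/- PT cells under both conditions. Of all genes, 11.8% were called lower untreated and 13.4% with H2O2. Peg10 (4747306 to 4760517) derives from a retrotransposon and encodes a Gag-like protein needed for the placenta. Its normalized counts were 5367, 5221 and 4749 in untreated TβRIIflox/flox and 206, 214 and 250 in untreated TβRII-/- PT cells, 22.8-fold lower (log2 fold change −4.51 ± 0.08 SE, edgeR adjusted p = 6.18e-30). With H2O2 they were 6414, 6851 and 6680 against 319, 278 and 304 (log2 fold change −4.47 ± 0.08 SE, edgeR adjusted p = 2.7e-30). Peg10 thus remained measurable in every TβRII-/- library. Its mean in untreated TβRIIflox/flox PT cells was 5113 normalized counts, against 37.2 for Peg12, so what stayed measurable does not compare the falls of these genes.

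Sgce, which encodes epsilon sarcoglycan of the dystrophin complex, shares a bidirectional promoter with Peg10. It had 1471, 1570 and 1359 normalized counts in untreated TβRIIflox/flox and 245, 282 and 242 in untreated TβRII-/- PT cells, a 5.72-fold fall (log2 fold change −2.52 ± 0.08 SE, edgeR adjusted p = 5.11e-23). With H2O2 its levels were 1976, 2004 and 1790 against 307, 323 and 268 (log2 fold change −2.68 ± 0.08 SE, edgeR adjusted p = 2.88e-24). Ppp1r9a encodes neurabin, which binds actin and protein phosphatase 1, and is listed as expressed from the maternal allele. It had 1703, 1316 and 1365 against 438, 434 and 388 normalized counts without H2O2 (log2 fold change −1.80 ± 0.09 SE, edgeR adjusted p = 2.75e-18) and 2280, 2685 and 2444 against 570, 602 and 657 with it (log2 fold change −2.02 ± 0.08 SE, edgeR adjusted p = 2.13e-20). Genes listed under both parental origins in this cluster thus fell together, while the allele in use in these cells was not measured.

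Asb4, a maternally expressed gene of the same cluster that did not pass the filter, had 11, 3 and 3 raw counts in untreated TβRIIflox/flox libraries and 0 in the untreated TβRII-/- libraries, at least 6.19-fold lower. With H2O2 it had 1, 4 and 2 raw counts against 1, 0 and 2. Calcr, the calcitonin receptor gene, was at 0 in every library. The 15 tested neighbours of Peg10 had a median log2 fold change of −0.01 without H2O2 and 0.02 with it, and none of the 15 lay beyond Peg10, Sgce or Ppp1r9a in either comparison. In the plot of positions each gene stands at its lowest coordinate, whatever its strand. By that measure Sgce lay 0.073 Mb and Ppp1r9a 0.156 Mb from Peg10, which for Sgce is not the distance between transcription starts. Casd1, on the list of other imprinted genes, lay 0.146 Mb away on the side of Sgce. It fell by 0.95 on the log2 scale (± 0.07 SE, edgeR adjusted p = 2.25e-13).

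**Figure D2:**
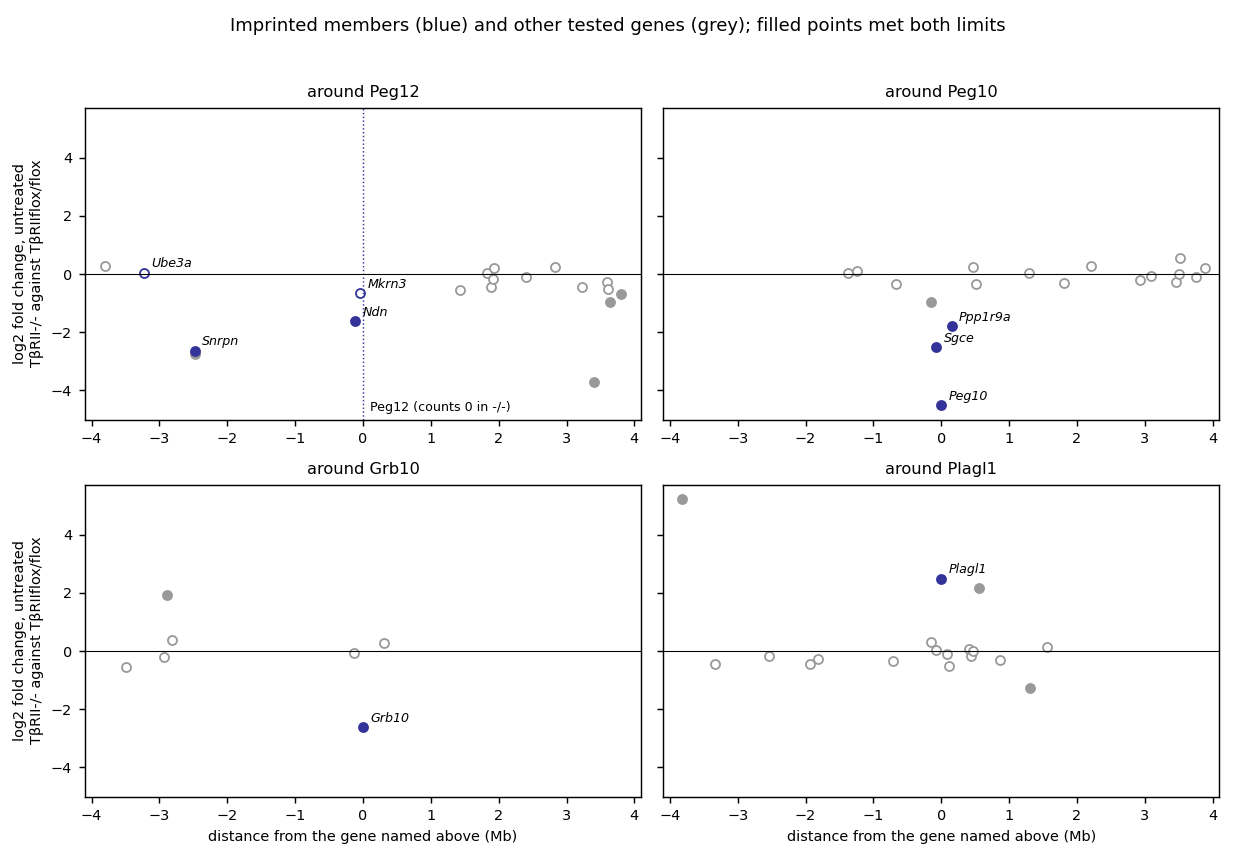
Log2 fold change of untreated TβRII-/- against TβRIIflox/flox PT cells (y axis) by distance in Mb (x axis) around Peg12, Peg10, Grb10 and Plagl1, with imprinted members in blue, other tested genes in grey, and filled points for genes past both limits. Peg12, with 0 counts in TβRII-/- PT cells, is drawn as a dotted line, and Peg10, Sgce and Ppp1r9a stand apart from neighbours whose median is −0.01.

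Grb10, on chromosome 11 (11930499 to 12037428), encodes an adaptor that inhibits the insulin and IGF1 receptors. Its normalized counts were 7322, 7019 and 7693 in untreated TβRIIflox/flox and 1139, 1185 and 1262 in untreated TβRII-/- PT cells, a 6.14-fold fall (log2 fold change −2.62 ± 0.07 SE, edgeR adjusted p = 4.74e-26). With H2O2 they were 4555, 4757 and 4710 against 986, 900 and 842 (log2 fold change −2.36 ± 0.07 SE, edgeR adjusted p = 9.42e-25). Its 24 neighbours had medians of −0.08 and 0.06, and none of them lay beyond Grb10. Its 9 transcripts all had a mean of at least 10 raw counts over all libraries. They gave log2 fold changes between −2.68 and −2.52 in the untreated comparison, although reads on shared exons were counted on each of them.

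Plagl1 rose in TβRII-/- PT cells under both conditions. The gene (chromosome 10, 13090832 to 13131694), whose product Zac1 is a zinc finger factor that can stop the cell cycle, had 57.9, 52.3 and 46.2 normalized counts in untreated TβRIIflox/flox and 301, 293 and 288 in untreated TβRII-/- PT cells. It was 5.63-fold higher (log2 fold change 2.49 ± 0.14 SE, edgeR adjusted p = 6.63e-17), and with H2O2 it had 71.0, 83.7 and 82.5 against 423, 454 and 550 (log2 fold change 2.59 ± 0.12 SE, edgeR adjusted p = 6.12e-19). The groups did not overlap. Its 24 neighbours had a median of −0.19 without H2O2, and 1 of them lay beyond Plagl1, and 2 with H2O2.

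In the H19-Kcnq1 cluster at the end of chromosome 7, Cdkn1c rose in TβRII-/- PT cells. Phlda2 and Kcnq1 passed the filter only through the TβRII-/- libraries and so had to differ, and their levels are a description. Cdkn1c (143458339 to 143461059) encodes p57, an inhibitor of cyclin-dependent kinases, and went from 84.2, 80.1 and 86.0 to 185, 189 and 161 normalized counts between the untreated genotypes (log2 fold change 1.09 ± 0.15 SE, edgeR adjusted p = 9.5e-08). After H2O2 the levels were 165, 115 and 110 against 223, 259 and 268 (log2 fold change 0.94 ± 0.13 SE, edgeR adjusted p = 1.34e-07). An antisense gene, Gm44732, overlaps 30.5% of its exonic bases. Phlda2, a pleckstrin homology domain gene that limits placental growth, had 0 counts in the untreated TβRIIflox/flox libraries and 24.1, 16.5 and 20.1 normalized counts in the untreated TβRII-/- libraries. This was at least 18.6-fold higher, with 61 raw counts against 0. With H2O2 it had 0, 1.03 and 0 against 30.5, 19.7 and 29.8 normalized counts, 88 raw counts against 1, a ratio of 74.0 (95% counting interval 12.9 to 2960). The levels of Phlda2 over the 4 groups thus ran opposite to those of Peg12, but this follows from how both genes came in. Peg12 was chosen for its loss, and Phlda2 passed the filter only through TβRII-/- libraries.

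Kcnq1, a voltage-gated potassium channel gene, was low throughout, with 1, 1 and 0 raw counts in untreated TβRIIflox/flox and 10, 8 and 10 in untreated TβRII-/- PT cells. The ratio was 12.8 (95% counting interval 3.23 to 111), and 26.9 with H2O2 (4.5 to 1100, from 32 raw counts against 1). Antisense RNAs including Kcnq1ot1 overlap 16.2% of its exonic bases, so its origin within the locus is uncertain. Osbpl5, a lipid transfer protein gene, had 1326, 1372 and 1366 normalized counts against 1240, 1170 and 1210 without H2O2, and 1271, 1296 and 1287 against 1230, 1205 and 1221 with it. Cd81, a tetraspanin gene, had 16027, 15251 and 12374 against 13303, 12655 and 12586 without H2O2, and 17393, 17980 and 17514 against 12891, 11988 and 12791 with it. Its difference with H2O2 (log2 fold change −0.49 ± 0.07 SE, edgeR adjusted p = 5.89e-07) was below the fold limit. Ascl2 had at most 1 raw count and Tspan32 at most 5 in a library. The 24 neighbours of Cdkn1c had median log2 fold changes of 0.17 without H2O2 and 0.06 with it. Of them 7 and 8 were called, beside 28.0% and 30.7% of all genes, and 5 and 4 lay beyond Cdkn1c.

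In the Peg3 cluster at the start of chromosome 7, the paternally expressed Usp29 was called higher in TβRII-/- PT cells with H2O2, while Peg3 stayed below the fold limit. The maternally expressed Zim1 passed the filter only through the TβRII-/- libraries and so had to differ. Zim1 (6674444 to 6696540), a zinc finger gene, had 8.42, 0 and 3.23 against 28.2, 18.4 and 21.1 normalized counts without H2O2 (log2 fold change 2.47 ± 0.49 SE, 3.67 without untreated TβRIIflox/flox replicate 1 and 1.91 without replicate 2). With H2O2 it had 2.03, 2.07 and 4.58 against 20.3, 19.7 and 24.9 (log2 fold change 2.87 ± 0.52 SE). Usp29, of the ubiquitin-specific protease family, had 348, 375 and 352 against 467, 573 and 523 without H2O2. Its log2 fold change of 0.54 ± 0.09 SE (edgeR adjusted p = 4.71e-06) was below the fold limit, whereas with H2O2, at 272, 268 and 312 against 549, 460 and 446, it was 1.71-fold higher (log2 fold change 0.78 ± 0.09 SE, edgeR adjusted p = 1.09e-08). The call in one condition and not in the other is no difference between them (interaction 0.23 ± 0.13 SE, edgeR adjusted p = 0.286). Over the 8 Usp29 transcripts with a mean of at least 10 raw counts over all libraries, the log2 fold change ran from −0.52 to 0.54 without H2O2 and from −0.19 to 1.11 with it. Peg3, a zinc finger gene and the most counted of the cluster, had 13854, 11895 and 12646 against 17095, 16711 and 17772, and with H2O2 11095, 12032 and 11992 against 15999, 16091 and 17751. Its log2 fold changes of 0.43 ± 0.07 SE (edgeR adjusted p = 1.82e-06) and 0.51 ± 0.07 SE (edgeR adjusted p = 8.14e-08) were both below the fold limit.

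Trappc9 (chromosome 15, 72589620 to 73061238), a subunit of the TRAPP II trafficking complex, had 335, 318 and 366 normalized counts in untreated TβRIIflox/flox and 578, 562 and 627 in untreated TβRII-/- PT cells (log2 fold change 0.79 ± 0.08 SE, edgeR adjusted p = 6.96e-10). Its H2O2 levels were 297, 258 and 264 against 593, 539 and 508 (log2 fold change 1.0 ± 0.09 SE, edgeR adjusted p = 5.82e-12). Its 24 neighbours also tended upward, with medians of 0.30 and 0.45. In each comparison 11 of them were called, beside 28.0% of all genes untreated and 30.7% with H2O2. Over the 6 Trappc9 transcripts the untreated log2 fold change ran from 0.09 to 0.85.

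Commd1, Blcap, Mcts2, Gnas and Impact, which lie in other domains, showed no called genotype difference. Commd1, a trafficking gene, had 210, 250 and 238 against 184, 205 and 180 normalized counts untreated, and 227, 182 and 186 against 152, 162 and 159 with H2O2. Blcap had 777, 872 and 681 against 763, 781 and 754 untreated, and 870, 920 and 834 against 836, 777 and 806 with H2O2. Mcts2, a translation factor retrogene, had 150, 142 and 161 against 174, 174 and 145 untreated, and 129, 140 and 163 against 153, 164 and 152 with H2O2. These 3 had log2 fold changes between −0.33 and 0.13. Gnas, the stimulatory G protein alpha subunit, had 10085, 10384 and 10453 against 9577, 9567 and 9328 untreated, and 8640, 7889 and 8238 against 9374, 8953 and 8701 with H2O2. Impact, an inhibitor of the GCN2 kinase, had 285, 286 and 343 against 367, 399 and 360 untreated, and 364, 375 and 411 against 468, 406 and 459 with H2O2. The members Dlk1, Rtl1, Rasgrf1 and Zdbf2, as well as Magel2 and Calcr, had 0 counts in all 12 libraries, where a count of 0 allows at most 3 counts over a group, and Nap1l5 and Nnat had 1 count in 1 library each.

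**Figure D3:**
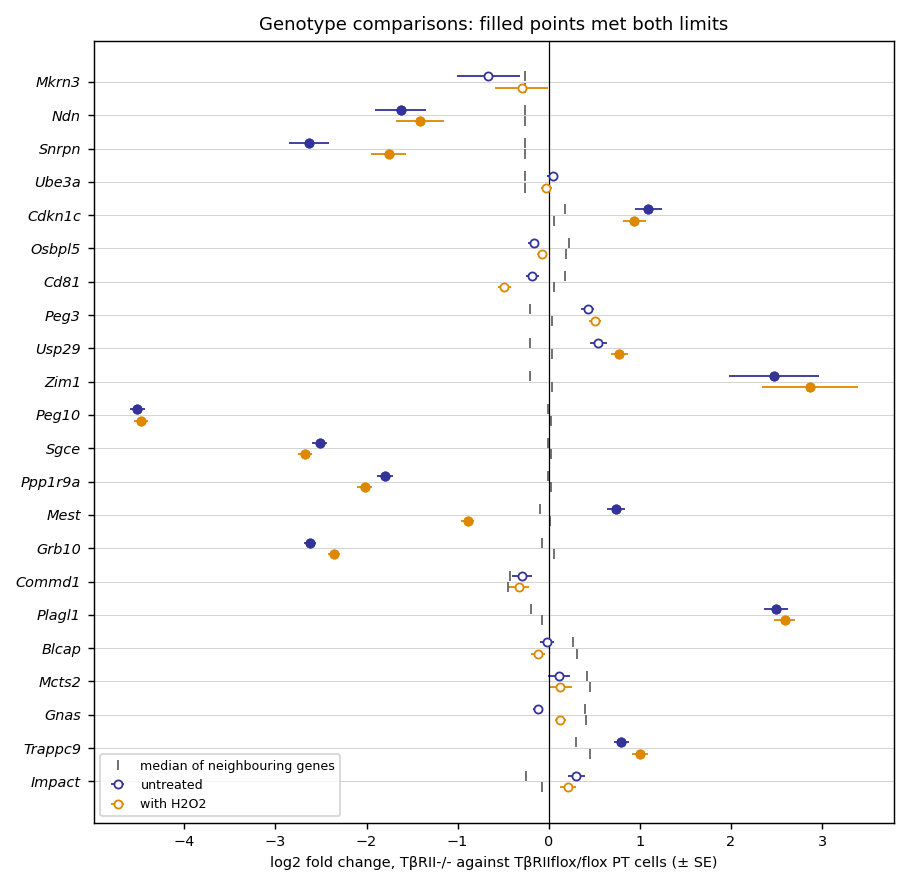
Log2 fold change of TβRII-/- against TβRIIflox/flox PT cells with its SE (x axis) for 22 tested imprinted genes in order of cluster (y axis), untreated in blue and with H2O2 in orange, with grey marks for the median of neighbouring genes. Filled points met both limits, Peg12, Phlda2 and Kcnq1 are left out because a group had at most 3 counts, and Mest is the gene whose 2 filled points lie on opposite sides of 0.

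Across the list, 13 of 24 tested members were called between the untreated genotypes, at a Benjamini-Hochberg adjusted p under 0.05 and a fold change of at least 1.5, whereas 28.0% of all genes tested were. Of these, 7 were higher in TβRII-/- PT cells (16.3% of all genes) and 6 were lower (11.8%). With H2O2, 14 of 24 were called (30.7% of all genes), 7 higher (17.3%) and 7 lower (13.4%). In both comparisons 12 members were called in the same direction, that is 12 of 13 and 12 of 14. The matching share of all genes was not computed. No library is shared between these comparisons, but both set the same genotypes against each other, so their agreement is no independent support. Phlda2, Kcnq1 and Zim1, which had to differ, are among the 12. When each library had to hold 10 counts or more, 10 of 20 members were called untreated (23.3% of all such genes) and 11 of 20 with H2O2 (26.0%). The median log2 fold change of the members was 0.01 untreated, beside 0.01 over all genes, while their median absolute log2 fold change was 0.77 beside 0.34 over all genes. The members thus moved in both directions. Of 11 members listed as paternally expressed 2 rose and 4 fell, and of 13 listed as maternally expressed 5 rose and 2 fell. Phlda2, Kcnq1 and Zim1, which had to differ, are among these 5, so the split by origin depends on the filter. Whether the 2 origins differ was not tested.

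The order of levels among imprinted genes also differed between the genotypes, on the scale of normalized counts per kb of transcript (lengths from GENCODE M39, a later release than the one counted). In untreated TβRIIflox/flox PT cells the means were 9424 for Cd81, 2641 for Gnas, 1443 for Grb10, 1415 for Peg3, 862 for Sgce and 767 for Peg10. In untreated TβRII-/- PT cells Cd81 and Gnas still led with 8321 and 2432, followed by Peg3 with 1901, while Grb10 stood at 235, Sgce at 151 and Peg10 at 33.5.

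H2O2 in serum free media was compared with normal culture media within each genotype. In TβRIIflox/flox PT cells 5 of 25 members were called (8.24% of all genes), 4 higher (5.68%) and 1 lower (2.56%). In TβRII-/- PT cells 3 of 25 were called (8.33% of all genes), all 3 higher (4.56%), beside 3.76% of all genes lower. These comparisons share their untreated libraries with the genotype comparison.

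Mest, a paternally expressed alpha/beta hydrolase gene linked to growth and fat expansion (chromosome 6, 30733506 to 30748466), rose with H2O2 in both genotypes, and more in TβRIIflox/flox. It went from 174, 152 and 143 to 759, 756 and 794 normalized counts in TβRIIflox/flox PT cells, 4.91-fold higher (log2 fold change 2.30 ± 0.09 SE, edgeR adjusted p = 2.3e-19). In TβRII-/- PT cells it went from 269, 260 and 257 to 400, 399 and 447, 1.58-fold higher (log2 fold change 0.66 ± 0.08 SE, edgeR adjusted p = 1.58e-07). The responses differed by −1.63 ± 0.12 SE on the log2 scale (interaction, edgeR adjusted p = 1.54e-10). Between genotypes Mest was accordingly 1.67-fold higher in untreated TβRII-/- PT cells (log2 fold change 0.74 ± 0.10 SE, edgeR adjusted p = 7.21e-08) and 1.86-fold lower with H2O2 (log2 fold change −0.89 ± 0.08 SE, edgeR adjusted p = 4.1e-12). Copg2, which overlaps 47.6% of the Mest exonic bases on the opposite strand, had means of 928, 787, 862 and 854 normalized counts in untreated TβRIIflox/flox, untreated TβRII-/-, and the same with H2O2. Over the 10 Mest transcripts with a mean of at least 10 raw counts over all libraries, the H2O2 log2 fold change was between 2.28 and 2.65 in TβRIIflox/flox and between 0.03 and 0.74 in TβRII-/- PT cells. The 24 neighbours of Mest had medians of 0.03 and 0.02 for H2O2, and none lay beyond Mest in TβRIIflox/flox PT cells.

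Of 25 members, 1 was called in the interaction at an adjusted p under 0.05, beside 10.2% of all genes, with 3.9% of all genes higher and 6.28% lower. Cd81 came near with −0.31 ± 0.10 SE (edgeR adjusted p = 0.0503), and passed under 5 of 6 other settings that kept all libraries and called by adjusted p. The other members differed between the genotypes in the H2O2 response by less than the test could call.

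Plagl1 rose with H2O2 in both genotypes, with log2 fold changes of 0.60 ± 0.17 SE in TβRIIflox/flox (edgeR adjusted p = 0.00507) and 0.69 ± 0.10 SE in TβRII-/- PT cells (edgeR adjusted p = 8.53e-07). Both stood close to the fold limit: the first was 0.52, 0.55 and 0.58 without untreated TβRIIflox/flox replicate 3 and TβRIIflox/flox H2O2 replicates 2 and 3, and the second was 0.58 without TβRII-/- H2O2 replicate 3, each of which ends the call. Cdkn1c rose in TβRIIflox/flox PT cells by 0.64 ± 0.15 SE (edgeR adjusted p = 0.00114). It was 0.44 without H2O2 replicate 1, whose level of 165 stood above the other 2, and this too ends the call. In TβRII-/- PT cells its rise of 0.49 ± 0.12 SE (edgeR adjusted p = 0.00178) was below the fold limit. The call in one genotype and not in the other is no difference between them (interaction −0.15 ± 0.20 SE, edgeR adjusted p = 0.692).

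Ppp1r9a rose in TβRIIflox/flox PT cells by 0.76 ± 0.08 SE on the log2 scale (edgeR adjusted p = 2.04e-09), and Grb10 fell by 0.65 on that scale (± 0.06 SE, edgeR adjusted p = 3.01e-10). In TβRII-/- PT cells their log2 fold changes of 0.54 ± 0.09 SE and −0.39 ± 0.07 SE were below the fold limit. Neither gene was called in the interaction. It was −0.22 ± 0.12 SE for Ppp1r9a (edgeR adjusted p = 0.272) and 0.26 ± 0.09 SE for Grb10 (edgeR adjusted p = 0.0639). Snrpn rose in TβRII-/- PT cells by 0.84 ± 0.27 SE (edgeR adjusted p = 0.013), with libraries that overlapped: replicate 3 with H2O2, at 19.9, lay within the untreated range of 16.7 to 22.0. Without replicate 1 or replicate 2 of that group the edgeR adjusted p was 0.0688 or 0.0871. In TβRIIflox/flox PT cells Snrpn had a log2 fold change of −0.03 ± 0.17 SE, and its interaction was not called (0.87 ± 0.32 SE, edgeR adjusted p = 0.0752). Peg12, whose H2O2 response the choice of members did not use, had a log2 fold change of −0.57 ± 0.30 SE in TβRIIflox/flox PT cells (edgeR adjusted p = 0.124), and at 0 and 1 raw counts no fold is given in TβRII-/- PT cells.

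**Figure D4:**
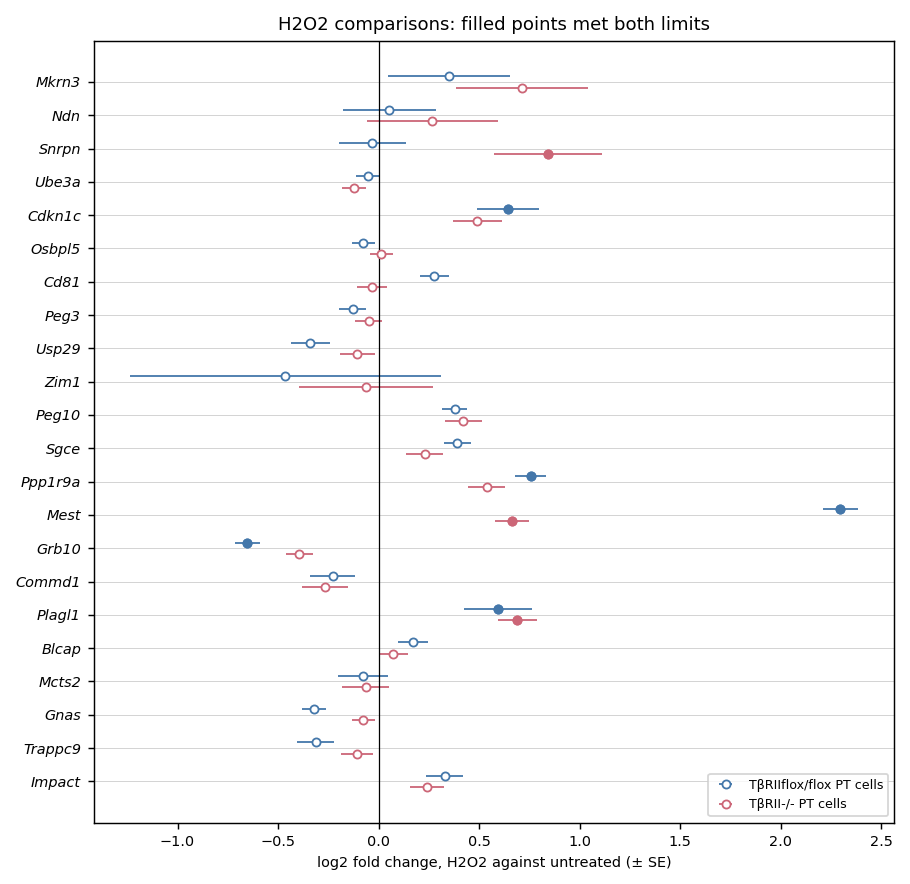
Log2 fold change of H2O2 against untreated with its SE (x axis) for 22 tested imprinted genes (y axis) in TβRIIflox/flox (blue) and TβRII-/- PT cells (red), with filled points past both limits. Mest in TβRIIflox/flox PT cells, at 2.30, stands far to the right, and the other points lie between −0.65 and 0.84.

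Imprinted genes outside the 41 members were read from a list of 43, of which 36 had a transcript and 25 were tested. Between the untreated genotypes 12 of 25 were called, beside 28.0% of all genes, 6 higher (16.3% of all genes) and 6 lower (11.8%), with a median log2 fold change of −0.24. With H2O2, 13 of 25 were called, beside 30.7% of all genes. Igf2, Snurf, Dio3 and Dcn had under 10 counts in most libraries of 1 genotype and passed the filter through the other, so their differences are a description. They are among the 12 and the 13 called, so these counts depend in part on the filter. The counts without them were not computed. Igf2, the fetal growth factor gene beside H19, had 197, 154 and 199 normalized counts in untreated TβRIIflox/flox and 7.32, 2.90 and 11.5 in untreated TβRII-/- PT cells (log2 fold change −4.64 ± 0.24 SE). Dio3, which encodes the deiodinase that inactivates thyroid hormone and lies in the Dlk1-Meg3 domain, showed the opposite: 1.05, 0 and 2.15 against 70.1, 78.4 and 60.3 normalized counts, 211 raw counts against 3, a ratio of 64.4 (95% counting interval 21.7 to 315). Dlk1 and Rtl1 of that domain stayed at 0. Snurf, whose reads Snrpn shares, had a log2 fold change of −2.76 ± 0.48 SE. Dcn, the decorin gene, was low, at 1.05, 3.34 and 0 against 2.09, 6.78 and 7.66, and the groups overlapped (log2 fold change 1.87 ± 0.81 SE). Of the 25, H2O2 called 1 in TβRIIflox/flox (8.24% of all genes) and 5 in TβRII-/- PT cells (8.33%), and the interaction called 4 (10.2%).

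Factors that set, keep or erase imprints were read from a list of 29, of which 26 were tested. Between the untreated genotypes 4 of 26 were called, a smaller share than the 28.0% of all genes. All 4 were lower in TβRII-/- PT cells (11.8% of all genes), and the median log2 fold change over the list was −0.10. With H2O2, 5 of 26 were called, 4 of them lower (30.7% and 13.4% of all genes). Dnmt3a, a de novo DNA methyltransferase, had 1526, 1273 and 1402 against 612, 642 and 688 normalized counts (log2 fold change −1.11 ± 0.07 SE, edgeR adjusted p = 1.14e-14). Tet2, an enzyme that oxidizes methylated cytosine, had 793, 668 and 717 against 351, 324 and 335 (log2 fold change −1.11 ± 0.09 SE, edgeR adjusted p = 3.16e-12). Tet1, of the same family, was low, at 11.6, 8.90 and 12.9 against 2.09, 4.84 and 1.92 (log2 fold change −1.87 ± 0.61 SE), and passed the filter through the TβRIIflox/flox libraries. It is among the 4 called, so that count depends in part on the filter. Zfp57, the zinc finger factor that guards methylated imprinting control regions, had 856, 800 and 796 against 547, 540 and 535 (log2 fold change −0.60 ± 0.08 SE, edgeR adjusted p = 3.91e-08), close to the fold limit. Dnmt1 and Uhrf1, which copy methylation after replication, had log2 fold changes of −0.05 ± 0.06 SE and 0.04 ± 0.06 SE. DNA methylation and allelic expression were not measured.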

How the data were processed

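RNA-seq was performed on 12 libraries. The authors trimmed reads with fastp, mapped them with STAR (genome GRCm38.p6, annotation GENCODE M23) and counted them with featureCounts, by their methods at the level of genes. The values they deposited are nevertheless raw counts listed per transcript, where a read on several transcripts counts on each; strand and multi-mapping settings are not given in the sources used here, so genes with antisense or same-strand overlap are named as such. By their identifiers, 104820 of 106332 transcripts were found in GENCODE M39, and the 1512 others (1.22% to 1.28% of counts) were left out. The transcript with the highest total stood for each of the 17419 genes with several.

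Tests were run with edgeR 4.0.16 on limma 3.58.1 in R 4.3.3 (TMM, filterByExpr, glmQLFit and glmQLFTest, 1 mean per group) over 12971 genes, with Benjamini-Hochberg adjustment over all of them. A gene was called at an adjusted p under 0.05 and a fold change of at least 1.5, and the interaction at the adjusted p alone. Normalized counts are counts scaled to a mean effective library of 17351835. Against a group with 0 counts, a lower bound was computed from a floor of 3 counts over the group. Against 1 to 3 counts, the ratio has an exact 95% counting interval. Alternatives used DESeq2 1.42.0, its size factors, other filters, samples, thresholds and sums of transcripts, a replicate block, and each library left out. The test was tried on simulated counts. Overlaps were taken from GENCODE M39 and BLAST 2.17.0+, promoters from RefSeq on GRCm38.p6 (33 of 41 members had a window), and tables were joined with Python 3.11.15, pandas 2.3.3 and scipy 1.17.1.

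The members, gene lists and tests were chosen with earlier results of these data known. All members are accounted for, with values per library where the mean reached 10 normalized counts in a group or a comparison was called. Of the lists of other imprinted genes and of imprint factors, the 4 called genes with the largest untreated genotype change are named. Casd1, Copg2, Dnmt1 and Uhrf1, the marker genes and the transcript ranges were named after their values had been seen. Neighbours are up to 12 tested genes on each side without listed imprinted genes. Same-numbered replicates did not deviate together (correlations of −0.10 to 0.06 over 18 pairs). No pair of replicates agreed within sampling noise.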

Additional observations from a re-analysis of the deposited data

Results flagged for a closer look

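Mest was singled out because its response to H2O2 in serum free media differed between the genotypes in the test of the interaction, with a log2 difference of −1.63 (edgeR adjusted p = 1.54e-10). All 3 libraries of each genotype were higher with H2O2 than untreated, by 4.91-fold in TβRIIflox/flox and 1.58-fold in TβRII-/- PT cells. The groups of 3 libraries were too small for a check of single outlying samples.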

How the results depend on the processing

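Over 1697 recomputed fold changes of single members, 1636 kept their direction and their side of the threshold, 7 lost a call, 14 gained one, 40 values that were not called changed sign, and 0 called values reversed. Between the untreated genotypes 10 to 19 members were called, the least with at least 10 counts required in every library (Kcnq1, Phlda2 and Zim1 not tested) and the most without a fold limit, and 13 to 14 when a library was left out. With H2O2 the range was 11 to 18, and 14 in each fit without a library. The share of all genes called without a fold limit was not computed, so the counts of 19 and 18 have no background beside them.

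The H2O2 count went from 5 to 12 in TβRIIflox/flox and from 3 to 9 in TβRII-/- PT cells without a fold limit. Here too the share of all genes without a fold limit was not computed. Leaving out a library gave 4 to 5 and 2 to 3. The interaction gave 2 members with DESeq2 size factors, with at least 10 counts in every library and with the limits of an unadjusted p under 0.01 and 1.5-fold, and 3 with DESeq2 or with no filter. Leaving out a library gave 1 to 3 members, with Cd81 and Ppp1r9a gained without untreated TβRIIflox/flox replicate 1, Cd81 without replicate 2, Grb10 without untreated TβRII-/- replicate 3, and Grb10 and Snrpn without TβRII-/- H2O2 replicate 3. The cause was not tested. With the replicate block the interaction gave 2 members (Cd81 gained, −0.31 on the log2 scale, edgeR adjusted p = 0.0476) and the 4 other counts were 13, 14, 5 and 3 as without it; the labels' numbers did not pair the libraries. Depth limits Peg12, Ndn, Mkrn3, Phlda2, Kcnq1, Zim1 and Asb4, with at most 49 counts in a library.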
